A study of Mus musculus with 3 samples.

Results

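IL-6 was the only cytokine added between the pair of cultures described here. One culture held CD4+CD25- T cells with TGFβ at 5 ng/ml (called TGFβ), and the other held the same kind of cells with TGFβ at 5 ng/ml and IL-6 at 10 ng/ml (called IL-6/TGFβ). The cells came from female mice on the BALB/c background, aged 6 to 8 weeks and used for spleen and lymph node, that carried deletions of both Stat6 and T-bet, so every culture lacked both factors, and activation lasted 2 days in all of them, through anti-CD28 at 1 µg/ml and anti-CD3 coated on the plate at 5 µg/ml. The study set this pair side by side to find genes of standard Th17 polarization, those tied to IL-17 and to IL-10 alike. Each condition was hybridized to 1 array, whether cells of several mice were pooled is not given in the sources used here, and no test between conditions is possible. A culture with IL-6 and IL-23, each at 10 ng/ml and with no TGFβ named, gave the remaining array of the study (called IL-6/IL-23), whose levels are given for reference.

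The comparison covers every gene with a probe set that carries exactly 1 gene symbol, which is 18193 genes from 34945 of the 45101 rows of the value table. Of these, 9159 genes were read above a floor on at least 1 of the 2 arrays and 9034 were at the floor on both. The floor is a normalized intensity of 56.2, below which lay 95% of the values of 137 probe sets for genes of other tissues, such as liver, muscle and lens. Levels below are normalized intensities in arbitrary units, and they compare 1 gene between arrays and never different genes. Ratios are log2 of IL-6/TGFβ over TGFβ, so that 1 stands for a 2-fold higher level with IL-6/TGFβ. Where 1 array was at the floor the ratio is a bound, written "at least". A ratio with 1 level just above the floor rests on a value near the limit of detection. Tnfsf11, Igfbp7, Cd72, Ifih1, Itga3 and Cxcr5 are among such genes.

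IL-6 binds its receptor and the shared signalling chain gp130, encoded by Il6st, which activates JAK kinases and through them the transcription factor STAT3. TGFβ acts through Smad proteins and, given alone to an activated CD4 T cell, favours Foxp3 and the regulatory T cell programme. IL-6 together with TGFβ turns the same naive cell toward the Th17 programme, whose cells make IL-17 and, in this setting, also IL-10.

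The deposited intensities were dimmer as a whole on the IL-6/TGFβ array, with a median of 28.1 against 35.8, and the 18 hybridization control probe sets were dimmer with it, with medians of 825 and 1072. The arrays were therefore brought to 1 distribution. Unequal amounts of total mRNA per cell are removed by this step. For Tfrc, a control read at both transcript ends, 3' over 5' signal gave 2.49 with IL-6/TGFβ and 2.53 with TGFβ. The deleted genes gave signal on both arrays, where Stat6 read 259 with TGFβ against 223 with IL-6/TGFβ and Tbx21, the gene of T-bet, read 189.7 with TGFβ against 118 with IL-6/TGFβ, and as the deleted parts are not named in the labels these probe sets do not check the genotype. T cell markers were read on both arrays: all 10 T cell markers on the array were above the floor, and their ratios ran from -0.90 for Cd4 to 0.68 for Cd28, with Cd4 below the 5th percentile of all genes read on both arrays (-0.65).

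Most genes differed little, and the scaling of the arrays set the sign of small list medians: positive medians up to 0.37 turned negative without scaling, where the median of genes read on both arrays moved to -0.42. Of the 9159 genes, 7398 (80.8%) lay within 0.5 log2 units of no difference, and the 8534 genes read on both arrays had a median ratio of 0.02. Higher by 2-fold or more were 255 genes, 2.78% of those read, and at least 2-fold lower were 196 genes, 2.14%. At least 4-fold higher were 54 genes (0.59%) and at least 4-fold lower 28 genes (0.306%). The higher group holds 45 genes that were at the floor with TGFβ, and the lower group holds 42 that were at the floor with IL-6/TGFβ. The share of the 451 genes that were higher was 56.5%, and it moved with the scaling, to 44.9% after median scaling and 15.4% without scaling.

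**Figure D1:**
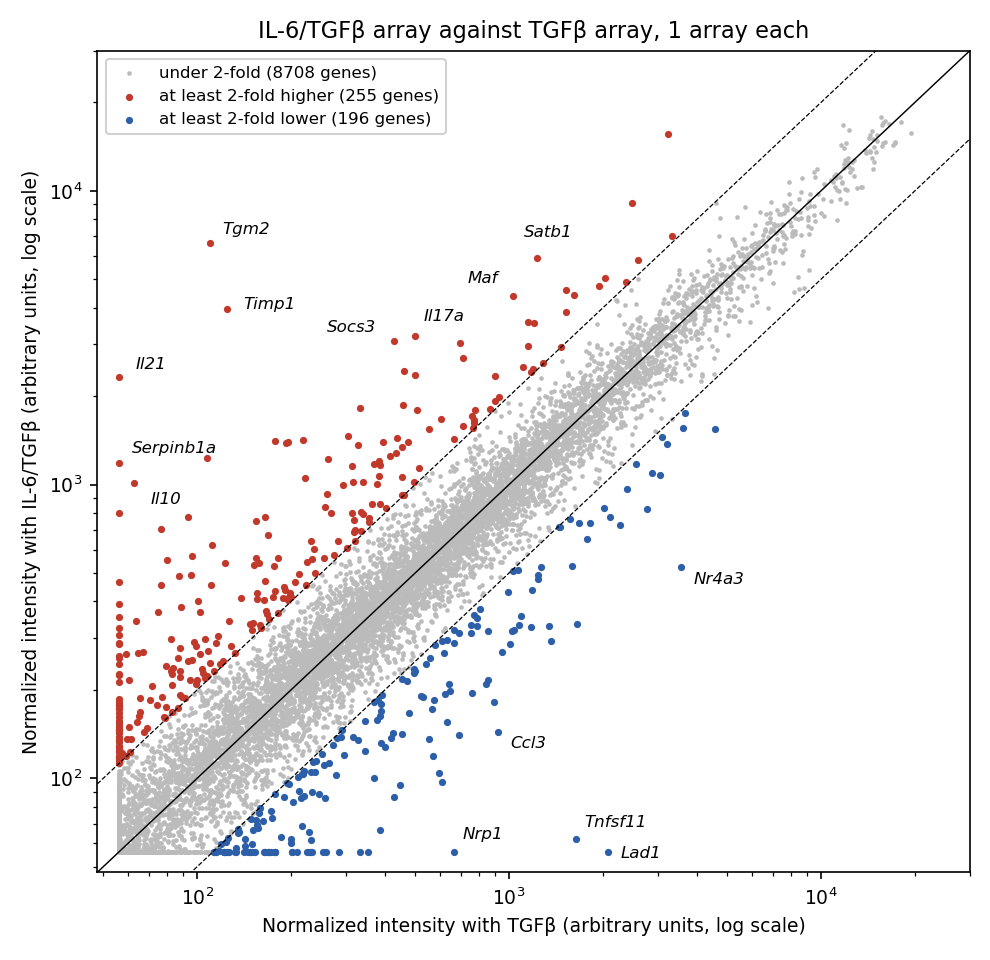
Normalized intensity of 9159 genes on the IL-6/TGFβ array (vertical) against the TGFβ array (horizontal), both on log scales in arbitrary units, with 1 point per gene and 1 array per condition. The solid line marks equal levels and the dashed lines 2-fold; 255 genes lie above the upper dashed line, Tgm2 and Timp1 farthest among genes read on both arrays, and 196 lie below the lower one, with Lad1 at the floor of 56.2 and Tnfsf11 close to it.

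The only error these arrays hold is how far probe sets of 1 gene spread. For a single log2 ratio the SD was 0.23 over 3764 genes, or 0.25 when outlying probe sets count fully, and it leaves out differences between cultures, mice and arrays. Among the 451 genes past 2-fold, 204 had a further probe set above the floor, and in 198 of them (97.1%) every further probe set had the same sign. The 6 exceptions were Cd82, Irf5, Marveld1, Ms4a6c, Rpl41 and Tsc22d1, chosen after their values were seen, and their ratios are not used. Among the genes named here, 87 of 115 further probe sets lay closer to 0 than the brightest one, whose ratio was in part what chose these genes. The 2-fold line cuts through a dense range, with 99 genes less than 0.1 log2 units past it and 95 less than 0.1 short of it.

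**Figure D2:**
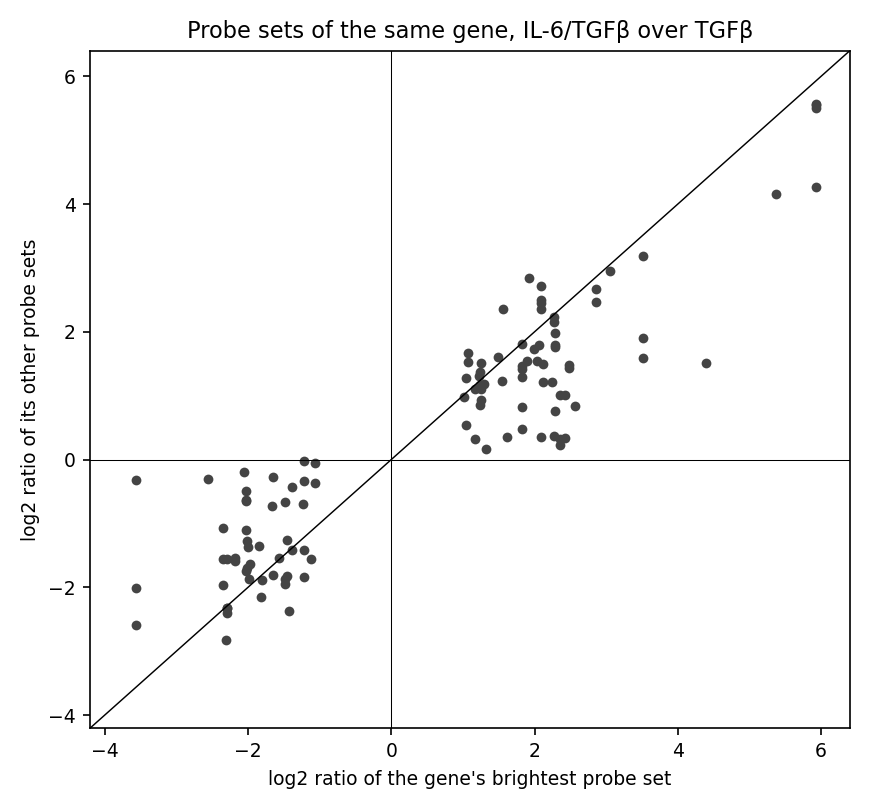
Log2 ratio of IL-6/TGFβ over TGFβ for 115 further probe sets (vertical) against the ratio of the brightest probe set of the same gene (horizontal), for 68 of the genes named in the text, with 1 point per further probe set. The line marks equal ratios; 87 of the 115 points lie closer to 0 than the brightest probe set, and the rank rule left out genes with probe sets of opposite sign, so that the 0 points of opposite sign are no measure of agreement.

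In the IL-6 pathway Jak1, Jak2, Tyk2 and Stat3 differed little, while the receptor chain Il6st was past 2-fold. Among feedback inhibitors Socs3 differed most. Of 9 genes of the receptor and JAK-STAT chain that were read, 1 was 2-fold higher and 0 were lower, and the median ratio was -0.03 against 0.02 for all genes. As 4.92% of all genes read were past 2-fold, a count of 1 in so short a list is no result about the chain. Il6st, the gp130 chain, read 234 with TGFβ, 559 with IL-6/TGFβ, then 164 with IL-6/IL-23, a ratio of 1.26 that fell short of 2-fold without scaling, and 3 further probe sets gave 0.93 to 1.51. Il6ra, the chain that binds IL-6, read 156 with TGFβ against 102 with IL-6/TGFβ (-0.61). Stat3 read 2564 with TGFβ against 3169 with IL-6/TGFβ, a ratio of 0.31, and Jak1 (-0.07), Jak2 (0.26) and Tyk2 (0.23) stayed close to 0.

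Socs3, which blocks gp130 signalling in a feedback loop, read 426 with TGFβ, 3092 with IL-6/TGFβ, then 1518 with IL-6/IL-23, so that it was 7.25-fold higher with IL-6/TGFβ, and its 2 further probe sets gave 2.46 to 2.67. Of 14 feedback inhibitors read, Socs3 was the 1 higher gene and 2 were lower: Socs2 read 3199 with TGFβ against 1379 with IL-6/TGFβ (-1.21, with further probe sets from -1.83 to -0.02), and Socs5 read 211 with TGFβ against 90.9 with IL-6/TGFβ (-1.22, with -0.34 in a further probe set). With the probe sets of a gene averaged, 2 were higher and 0 lower of 13. Socs1 (0.33) and Cish (-0.33), which act mainly on other cytokine receptors, were under 2-fold apart.

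Genes reported as STAT3 targets were the list with the most members past 2-fold. Of 24 read, 12 were higher and 1 was lower, with a median of 0.93 that ran from 0.30 to 0.93 over the scalings. The list was drawn up with earlier results of these data known, so its count is a description. Bcl3, an atypical inhibitor of NF-κB, read 378 with TGFβ against 1008 with IL-6/TGFβ (1.41, under 2-fold without scaling). Fosl2, an AP-1 subunit, read 222 with TGFβ against 1049.6 with IL-6/TGFβ (2.24), and Batf, an AP-1 partner that Th17 cells need, read 386 with TGFβ against 1168 with IL-6/TGFβ (1.60). Bcl6, the repressor that defines follicular helper cells, read 83.1 with TGFβ against 208 with IL-6/TGFβ (1.32, under 2-fold without scaling, with a further probe set at 0.17). The basic leucine zipper factor Nfil3 read 355 with IL-6/TGFβ and lay at the floor for TGFβ, at least 6.32-fold higher. Lgals3, which encodes galectin-3, was at least 2.54-fold higher. Not every target was higher: Pim1, a kinase gene often taken as a STAT3 readout, read 821 with TGFβ against 812 with IL-6/TGFβ (-0.02), Junb stood at 0.30 and Myc at 0.17, and Pim2 was lower (-1.26).

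To show the sequence beside these values, promoter windows of RefSeq (GRCm38.p6, 250 bases before to 50 after the start, 5′ to 3′ on the gene's strand) were searched for the STAT motif TTCNNNGAA, which reads the same on both strands. The windows shown are those of Socs3 and Bcl6, which were the 2 of 12 higher STAT3 targets that hold the motif, and that of Batf, which does not hold it. Capitals mark the motif.
Socs3 chr11:117969317-117969616 (-): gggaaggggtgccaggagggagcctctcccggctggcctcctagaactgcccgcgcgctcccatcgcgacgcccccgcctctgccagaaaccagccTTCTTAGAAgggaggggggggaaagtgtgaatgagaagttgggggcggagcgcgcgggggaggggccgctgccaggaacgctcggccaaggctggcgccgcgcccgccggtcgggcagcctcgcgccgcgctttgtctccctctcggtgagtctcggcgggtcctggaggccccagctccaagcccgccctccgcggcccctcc
Bcl6 chr16:23988803-23989102 (-): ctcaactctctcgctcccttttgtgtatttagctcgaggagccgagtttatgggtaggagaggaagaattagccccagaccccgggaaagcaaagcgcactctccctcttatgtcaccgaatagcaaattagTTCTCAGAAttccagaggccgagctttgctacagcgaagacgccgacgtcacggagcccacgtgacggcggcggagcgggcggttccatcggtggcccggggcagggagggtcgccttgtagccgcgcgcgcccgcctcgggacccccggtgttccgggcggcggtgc
Batf chr12:85686470-85686769 (+): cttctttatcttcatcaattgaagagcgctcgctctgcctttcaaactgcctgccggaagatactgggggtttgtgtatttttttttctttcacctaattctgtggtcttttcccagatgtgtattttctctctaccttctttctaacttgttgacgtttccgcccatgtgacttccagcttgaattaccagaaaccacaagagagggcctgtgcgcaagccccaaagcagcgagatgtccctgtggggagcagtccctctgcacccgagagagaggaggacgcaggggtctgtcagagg
The motif starts 154 bases before the gene start in Socs3 and 118 bases before it in Bcl6, whose further window in the table was not searched. Over all windows of genes read, 507 of 7545 (6.72%) hold it, against 15 of 205 (7.32%) of the higher and 15 of 154 (9.74%) of the lower genes. The AP-1 motif TGANTCA stood in 4.37% of all windows, in 8.78% of the higher and in 8.44% of the lower ones. The core of the aryl hydrocarbon receptor element, GCGTG on either strand, was less common among the genes past 2-fold, at 44.9% of the higher and 44.2% of the lower windows against 54.5% of all. The lower genes' windows also held fewer CpG, a median of 15 against 22 for all windows and 20 for the higher ones. These shares describe 1 window per gene and were not tested.

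Effector genes of the Th17 programme that were past 2-fold went in both directions. Il17a, the signature cytokine, read 498 with TGFβ, 3211 with IL-6/TGFβ, then 3273 with IL-6/IL-23, 6.44-fold higher than with TGFβ alone. Il21 read 2325 with IL-6/TGFβ against 2626 with IL-6/IL-23 and lay at the floor for TGFβ, and with IL-6/TGFβ it was at least 41.4-fold higher, while a further probe set gave a bound of 4.16 on the log2 scale. Lgals3, also in this list, was the last higher member, and Tnfsf11 and Csf2 were lower. Ccl20, the chemokine of Th17 cells, stood at 0.28, its receptor Ccr6 at -0.50, Il9 at 0.21 and Tnf at -0.15. Csf2, which encodes GM-CSF, read 115 with TGFβ and lay at the floor for IL-6/TGFβ and was at least 2.04-fold lower. In all, of 10 effector genes read, 3 were higher and 2 lower, with a median of 0.25. With a 2-fold higher floor 2 of 9 were higher and 1 was lower, with a median of 0.21.

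More transcription factors of the programme were past 2-fold. Of 13 read, 7 were higher and 0 lower, with a median of 1.08, which lay between 0.63 and 1.08 over the scalings. Rora, which encodes RORα, read 507 with TGFβ, 1800.5 with IL-6/TGFβ, then 748 with IL-6/IL-23 (1.83), and its 6 further probe sets gave 0.49 to 1.80. Ikzf3, which encodes Aiolos, a repressor of Il2, read 327 with TGFβ, 1359 with IL-6/TGFβ, then 221 with IL-6/IL-23 (2.06). Hif1a read 3319.9 with TGFβ against 7006 with IL-6/TGFβ (1.08, under 2-fold with median scaling and without scaling). Irf4 (0.34), Runx1 (-0.03), Cbfb (0.19) and Bhlhe40 (-0.23) did not reach 2-fold.

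**Figure D3:**
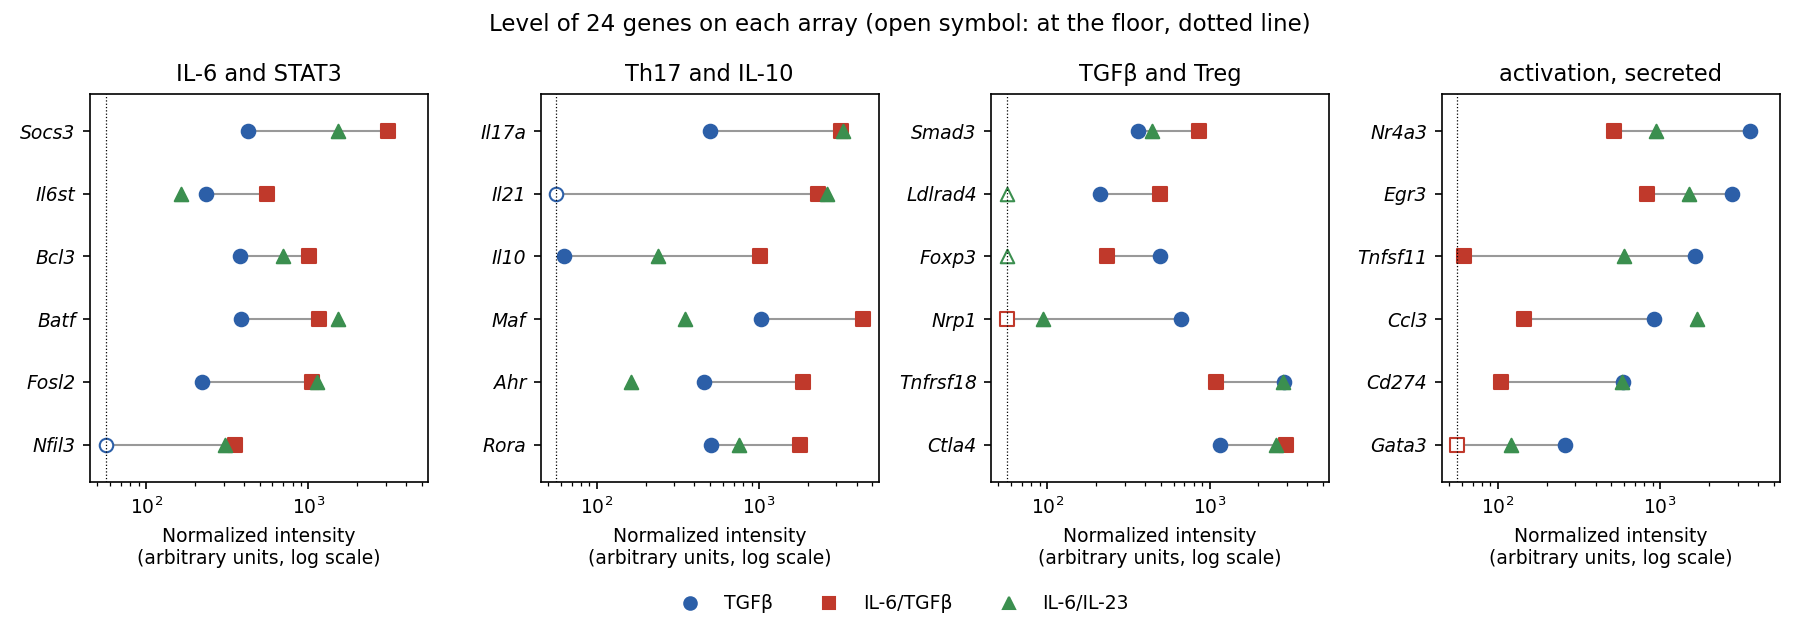
Normalized intensity (horizontal, log scale, arbitrary units) of 24 genes named in the text on the TGFβ array (circles), the IL-6/TGFβ array (squares) and the IL-6/IL-23 array (triangles), 1 array each, with open symbols for values at the floor of 56.2. Il17a and Il21 reached nearly the same level on both arrays with IL-6, while Maf and Ahr were highest with IL-6/TGFβ and lowest with IL-6/IL-23.

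Il10 itself read 62.8 with TGFβ, 1012 with IL-6/TGFβ, then 240.1 with IL-6/IL-23, and its level with TGFβ lay just above the floor, so the ratio of 4.01 rests on a value near the limit of detection. Among 18 reported regulators of Il10 that were read, 4 were higher, 1 was lower, and the median was 0.14, or -0.02 with a floor at the 90th percentile. Maf, a direct activator of Il10, read 1031 with TGFβ, 4388 with IL-6/TGFβ, then 351 with IL-6/IL-23; its ratio was 2.09, and 5 further probe sets gave 0.35 to 2.72. Ahr, the ligand-activated receptor that pairs with Maf, read 456 with TGFβ, 1861 with IL-6/TGFβ, then 163 with IL-6/IL-23 (2.03). Batf and Nfil3 were the other higher regulators. Gata3 read 258 with TGFβ against 120.1 with IL-6/IL-23 and lay at the floor for IL-6/TGFβ and was at least 4.59-fold lower. Jun stood at 0.65, Creb1 at -0.57 and Ets1 at -0.02.

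Ahr was higher together with 2 of its reported targets, and this short list depended on the processing. Of 6 members read, 3 were higher, Ahr included, with a median of 1.04; with probe sets averaged 2 were higher and the median was 0.43, and without a floor 4 were higher and it was 1.62. Tiparp, which dampens the receptor, read 155 with TGFβ, 751 with IL-6/TGFβ, then 527 with IL-6/IL-23 (2.28), and 2 further probe sets gave 1.79 and 1.99. Cyp1b1 read 172 with IL-6/TGFβ and lay at the floor for TGFβ (at least 3.05-fold higher), and a further probe set gave a bound of 0.36 on the log2 scale. Cyp1a1, the classical target, read 77.7 with TGFβ against 107 with IL-6/TGFβ, a ratio of 0.47 close to the floor, and the receptor's partner Arnt had a ratio of -0.36.

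TGFβ was present in both cultures, and genes of its pathway were compared between the culture with IL-6 and the one without. The receptors were not higher: Tgfbr1 read 3297 with TGFβ against 2387 with IL-6/TGFβ (-0.47) and Tgfbr2 stood at 0.03. Smad3, a signal-carrying Smad, read 363 with TGFβ, 856 with IL-6/TGFβ, then 442 with IL-6/IL-23 (1.24), Smad2 stood at 0.76 and the inhibitory Smad7 at 0.44. Acvr2a, an activin receptor, read 119 with TGFβ against 245 with IL-6/TGFβ (1.05) and was, with Smad3, the other gene past 2-fold of 15 receptors and Smads read; Smad3 was under 2-fold without scaling, and Acvr2a was under 2-fold with median scaling, with control scaling and without scaling. Among 20 targets and brakes of the pathway, 4 were higher and 0 lower (median 0.15, or 0.25 with a 2-fold higher floor). These were the brake Ldlrad4 (212 and 496, ratio 1.22, under 2-fold without scaling), Id2, an inhibitor of E proteins, which read 710.4 with TGFβ against 2704 with IL-6/TGFβ (1.93), and Ctla2a (1.88) and Ctla2b (2.12), close paralogs that probe sets may not tell apart. Pmepa1 (0.37), Ski (0.32) and Skil (0.03) stayed within 2-fold.

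Treg genes were lower more often than higher. Foxp3 read 498 with TGFβ against 232 with IL-6/TGFβ and lay at the floor for IL-6/IL-23, a ratio of -1.10. Nrp1, a surface receptor also found on Treg cells, which read 667 with TGFβ against 94.7 with IL-6/IL-23 and lay at the floor for IL-6/TGFβ, was at least 11.9-fold lower, and 3 further probe sets gave -2.60 to -0.33 on the log2 scale. Tnfrsf18, which encodes GITR, read 2872 with TGFβ against 1096 with IL-6/TGFβ (-1.39). Ctla4, an inhibitory receptor, went the other way and read 1153 with TGFβ, 2967 with IL-6/TGFβ, then 2578 with IL-6/IL-23 (1.36, under 2-fold without scaling). Ikzf2, which encodes Helios, fell just short at -0.98, while Il2ra (0.46), Ikzf4 (-0.04) and Gpr83 (-0.07) differed less. Over 17 members read, 2 were higher, 4 were lower and the median was -0.25, or -0.42 with probe sets averaged and -0.13 without probe sets that may read several transcripts; Il10 and Socs2, described above, are counted among them.

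The Th1 and Th2 lists are short. For Th1, of 10 members read, Runx3 was higher (1.07; under 2-fold with median scaling, with control scaling and without scaling) and Il18r1, a chain of the IL-18 receptor, was lower (254 and 111, -1.20). The median was -0.72, and -0.15 with a 2-fold higher floor, with Irf1 at -0.75, Ifng at -0.76 and Stat4 at 0.27, and T-bet is deleted in these cells. In the Th2 list, Il4ra, the IL-4 receptor chain, read 313 with TGFβ, 1160.4 with IL-6/TGFβ, then 555 with IL-6/IL-23 (1.89), Il24 read 95.5 with TGFβ, 493 with IL-6/TGFβ, then 214 with IL-6/IL-23 (2.37), and Gata3 was the lower member of 8 read. Il4 read 108 with TGFβ against 199 with IL-6/TGFβ (0.88).

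Follicular helper genes were divided. Tox2, a factor of follicular helper cells, read 801 with IL-6/TGFβ against 106 with IL-6/IL-23 and lay at the floor for TGFβ (at least 14.2-fold higher), Cxcr5, the receptor that brings them to follicles, read 64.7 with TGFβ against 267 with IL-6/TGFβ and lay at the floor for IL-6/IL-23 (2.04), and Pou2af1, a coactivator best known from B cells, read 178 with TGFβ, 1404 with IL-6/TGFβ, then 699 with IL-6/IL-23 (2.98). With Il21, Maf and Bcl6 these made 6 higher genes of 13 read, with a median of 0.35 that turned to -0.11 with probe sets averaged. Other surface molecules of the list were not 2-fold higher, with Icos at 0.00, Pdcd1 at -0.46, Btla at -0.54 and Sh2d1a, the signalling adaptor SAP, lower at -1.20. Of 12 B cell markers on the array, 11 were at the floor on both arrays, Pax5, Cd79a and Ms4a1 among them. Ighm was the marker that was read, and it is given with other immunoglobulin genes chosen after their values were seen: Ighm read 649.6 with TGFβ against 417 with IL-6/TGFβ (-0.64), while Igha read 60.3 with TGFβ against 216 with IL-6/TGFβ and Igkv8-30 read 178 with IL-6/TGFβ and lay at the floor for TGFβ. Their part in the Pou2af1 value was not tested.

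Immediate early genes past 2-fold were all lower. Nr4a3, an orphan receptor switched on by T cell receptor signalling, read 3556 with TGFβ, 522 with IL-6/TGFβ, then 943 with IL-6/IL-23 (-2.77). Egr3 read 2778 with TGFβ, 824 with IL-6/TGFβ, then 1513 with IL-6/IL-23 (-1.75) and Nr4a1 read 3094 with TGFβ against 1451 with IL-6/TGFβ (-1.09). These were the 3 lower of 16 immediate early genes read, with 0 higher and a median of -0.05. Close relatives stayed within 2-fold: Egr1 stood at -0.07, Egr2 at -0.16 and Nr4a2 at 0.16, and Fos (0.77) and Ier3 (0.98) leaned higher. Dusp5, a phosphatase of ERK, was lower too (-1.70, chosen after its value was seen).

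Few genes of the proximal T cell receptor machinery were past 2-fold, as among all genes read, where 4.92% were. Of 19 genes read, Ptpn22, a phosphatase, was higher at 1.02 (under 2-fold with median scaling, with control scaling and without scaling) and Trat1, an adaptor of the receptor complex, read 233 with TGFβ against 212 with IL-6/IL-23 and lay at the floor for IL-6/TGFβ and was at least 4.15-fold lower, although a further probe set gave -0.19. The median was 0.00 against 0.02 for all genes, and the counts are no result about the machinery. Tec, a kinase next to the receptor, was named by its rank and read 96.2 with TGFβ, 571 with IL-6/TGFβ, then 150.3 with IL-6/IL-23 (2.57), and its neighbour and relative Txk stood at 1.18 (under 2-fold without scaling; chosen after its value was seen).

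The genes of PD-L1 and PD-L2 were lower, while the ligand gene Cd86 was higher and inhibitory receptors varied. Cd274, which encodes PD-L1, read 594 with TGFβ, 104 with IL-6/TGFβ, then 579 with IL-6/IL-23 (-2.52), and its neighbour Pdcd1lg2, which encodes PD-L2, read 792 with TGFβ, 352 with IL-6/TGFβ, then 1004 with IL-6/IL-23 (-1.17). Cd96 read 1033 with TGFβ against 319 with IL-6/TGFβ (-1.70). On the higher side, Cd86 read 166 with IL-6/TGFβ and lay at the floor for TGFβ (at least 2.96-fold higher) and Ctla4 has been given. Over 17 molecules read, 2 were higher and 3 lower (median -0.32); that median was 0.16 with a 2-fold higher floor and -0.13 with probe sets averaged. Lag3 stood at 0.63 and Cd28 at 0.68.

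Besides Il10, Il17a, Il21 and Il24, no cytokine gene of the list was 2-fold higher. Of 20 read, 4 were higher and 2 lower, the second of these, beside Csf2, being Penk, the gene of enkephalin, which read 201 with TGFβ and lay at the floor for IL-6/TGFβ. Il2 read 726 with TGFβ, 1208 with IL-6/TGFβ, then 10464 with IL-6/IL-23, 0.74 for IL-6/TGFβ over TGFβ. Lta (-0.41), Ltb (-0.76) and Tgfb1 (-0.22) were within 2-fold. Interleukin receptor genes past 2-fold, beside Il4ra and the lower Il18r1, were the following: Il7r, the IL-7 receptor of resting T cells, read 169 with TGFβ against 676 with IL-6/TGFβ (2.00), and Il17ra, through which IL-17 acts, read 474 with TGFβ, 1391 with IL-6/TGFβ, then 387 with IL-6/IL-23 (1.55).

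TNF ligands gave one of the lowest medians. Tnfsf11, which encodes RANKL, read 1634 with TGFβ, 62.1 with IL-6/TGFβ, then 596 with IL-6/IL-23 (-4.72), with a further probe set at a bound of -3.44. Tnfsf10, the gene of TRAIL, read 177 with TGFβ and lay at the floor for IL-6/TGFβ (at least 3.15-fold lower, with further probe sets at -1.80 and -0.28), and Tnfsf8, the gene of CD30 ligand, read 165 with TGFβ against 451 with IL-6/IL-23 and lay at the floor for IL-6/TGFβ (at least 2.93-fold lower). Of 10 ligands read, 3 were lower and 0 higher, and the median was -0.74, from -1.11 to -0.74 over the scalings. With a 2-fold higher floor 1 of 7 ligands was lower and the median was -0.66. Of 16 receptors read, 4 were lower, namely Fas (-1.61), Cd40 (-1.45), Tnfrsf9, which encodes 4-1BB (-1.43), and Tnfrsf18. Tnfrsf13b, which encodes TACI, read 2367 with TGFβ, 4908 with IL-6/TGFβ, then 517 with IL-6/IL-23 and was the 1 higher receptor (1.05, under 2-fold with median scaling, with control scaling and without scaling).

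Chemokines had the lowest median of all lists, -1.20, with 4 lower and 0 higher of 7 read, and 13 of 20 at the floor on both arrays. With a 2-fold higher floor 2 of 5 chemokines were lower and the median was -0.95. Ccl3 read 922 with TGFβ, 144 with IL-6/TGFβ, then 1698 with IL-6/IL-23 (-2.68), its neighbour Ccl4 read 317 with TGFβ, 138 with IL-6/TGFβ, then 684 with IL-6/IL-23 (-1.20), Xcl1 read 217 with TGFβ against 68.6 with IL-6/TGFβ (-1.66) and Ccl1 read 209 with TGFβ and lay at the floor for IL-6/TGFβ (at least 3.72-fold lower). All 4 draw in other leukocytes.

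Chemoattractant receptors were higher more often than lower. Cxcr4, the receptor for CXCL12, read 93.3 with TGFβ, 777 with IL-6/TGFβ, then 60.5 with IL-6/IL-23 (3.06). Cysltr1, a receptor for cysteinyl leukotrienes, read 56.3 with TGFβ, 467 with IL-6/TGFβ, then 157 with IL-6/IL-23 (3.05), its TGFβ value lying at the edge of the floor. S1pr1, which lets T cells leave lymph nodes, read 83.1 with TGFβ against 227 with IL-6/TGFβ (1.45, under 2-fold without scaling). Lower were Gpr183, an oxysterol receptor (-1.24), and Ptger4, a receptor for prostaglandin E2, which read 2552 with TGFβ against 1174 with IL-6/TGFβ (-1.12). Of 16 receptors read, 4 were higher and 2 lower (median 0.37, which turned to -0.11 without scaling). Ccr7 (-0.04) and Ccr6 were within 2-fold.

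Adhesion molecules were lower in 4 cases and higher in 2 of 19 read (median -0.25, but 0.02 with probe sets averaged and 0.00 without probe sets that may read several transcripts). The lower ones were Alcam, a ligand of CD6 (529 and 188, -1.49, with further probe sets from -1.94 to -0.67), Vcam1, which was at the floor with IL-6/TGFβ (at least 2.62-fold lower, with further probe sets at -1.41 and -0.43), Itgb5 (-1.14) and Icam1, the ligand of LFA-1, which read 1031 with TGFβ against 506 with IL-6/TGFβ (-1.03). Cd44, a marker of activated T cells, read 3329.9 with TGFβ against 1673 with IL-6/TGFβ, just short of 2-fold (-0.99). Itga3, an integrin chain for laminin, read 63.8 with TGFβ, 343 with IL-6/TGFβ, then 1489 with IL-6/IL-23 (2.43), with further probe sets at 0.34 and 1.02, and Emb, which encodes embigin, stood at 1.29 (under 2-fold without scaling). Beside Nrp1, the semaphorin genes Sema4a (at least 3.16-fold lower, with -0.73 in a further probe set) and Sema4b (-1.05) were lower, while Sema7a stood at 0.70, and Sema4f, outside the list, read 76.6 with TGFβ against 453 with IL-6/TGFβ (2.57, with 0.83 in a further probe set).

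**Figure D4:**
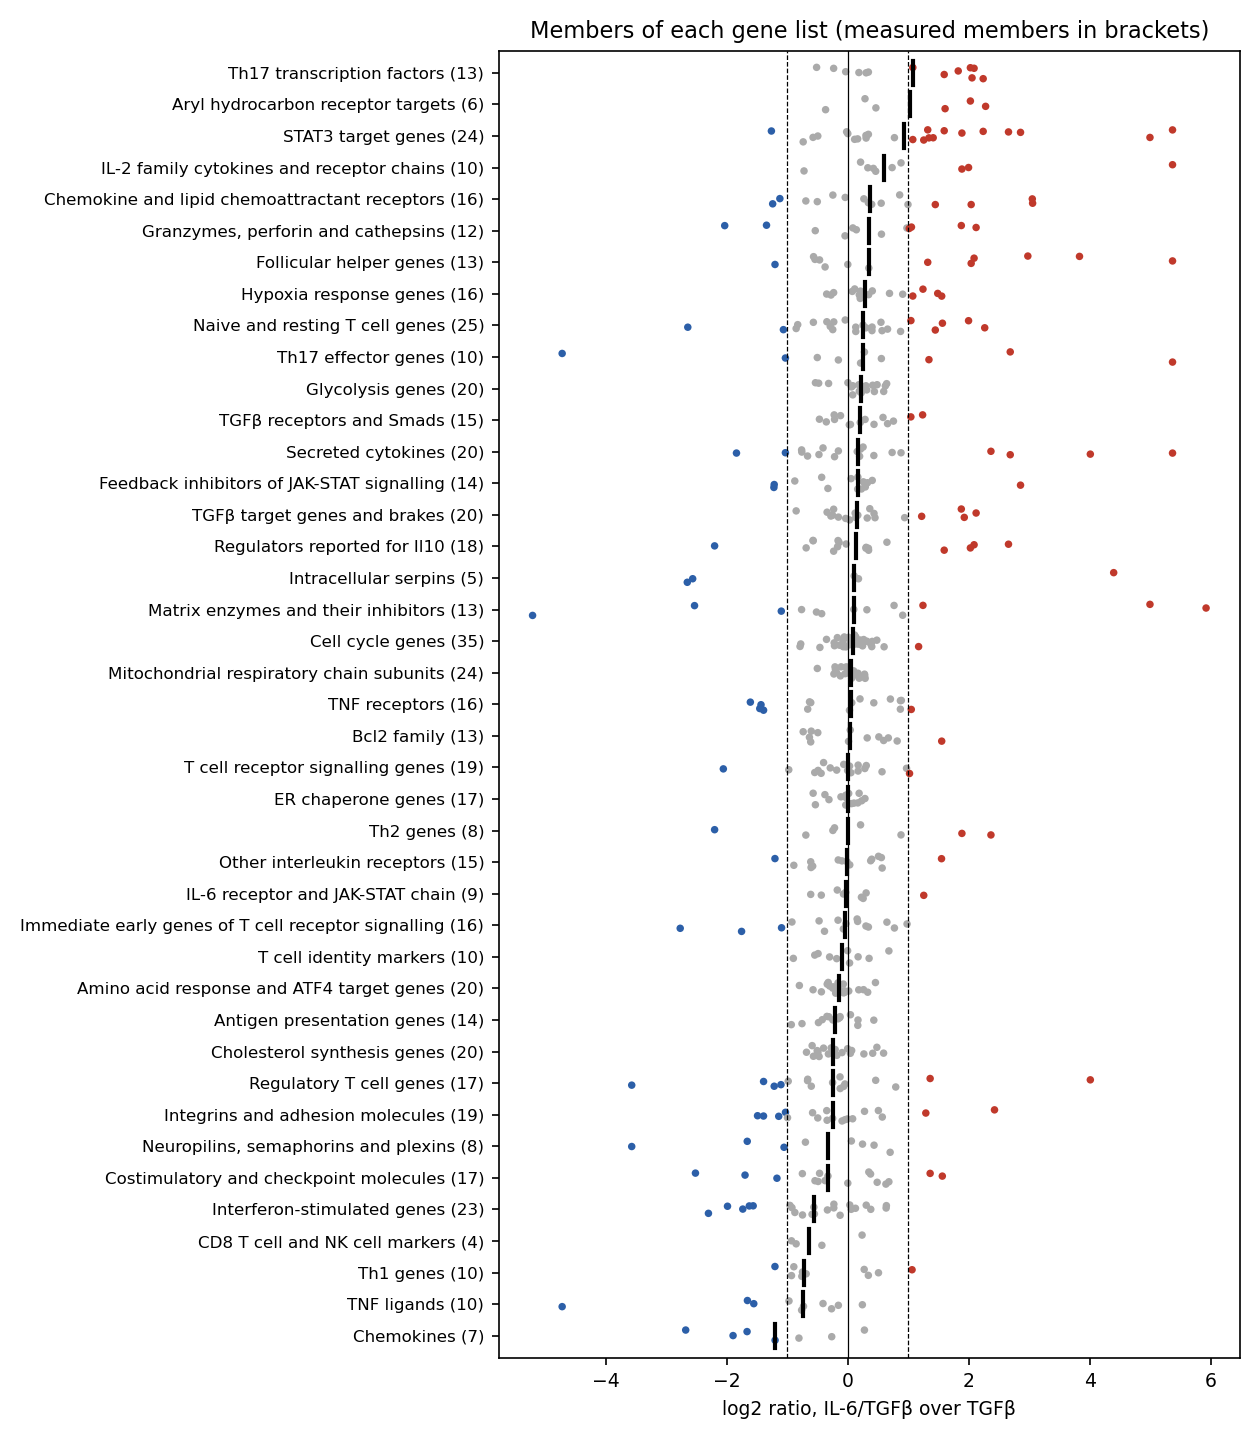
Log2 ratio of IL-6/TGFβ over TGFβ (horizontal) for each member of 41 gene lists with at least 4 members read, 1 row per list in order of its median (black bar) and 1 point per gene, red and blue for genes at least 2-fold higher or lower, with bounds plotted at the bound. Transcription factors of Th17 cells, targets of the aryl hydrocarbon receptor and STAT3 targets have the highest medians at these settings (1.08, 1.04 and 0.93), and chemokines and TNF ligands the lowest.

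Genes of the matrix and of protease control held the extremes of the whole comparison. Tgm2, a protein cross-linking transglutaminase, read 109.8 with TGFβ, 6668 with IL-6/TGFβ, then 3654 with IL-6/IL-23, the highest ratio among genes read on both arrays (5.92), and its 4 further probe sets gave 4.26 to 5.56. Timp1, an inhibitor of matrix metalloproteinases, read 124 with TGFβ, 3969.6 with IL-6/TGFβ, then 3814 with IL-6/IL-23 (5.00), while its relative Timp2 stood at 0.10. Plod2, a collagen lysyl hydroxylase, was higher (1.25, under 2-fold without scaling). At the other end, Lad1, which encodes the anchoring filament protein ladinin, read 2077 with TGFβ against 141 with IL-6/IL-23 and lay at the floor for IL-6/TGFβ and was at least 36.9-fold lower, the lowest bound of the comparison. Igfbp7, a secreted binding protein, read 386 with TGFβ against 66.9 with IL-6/TGFβ (-2.53), and Adamts6 stood at -1.10.

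Serpins of the cell interior went in opposite directions. Serpinb1a, an inhibitor of neutrophil proteases, read 1185 with IL-6/TGFβ and lay at the floor for TGFβ and IL-6/IL-23 (at least 21.1-fold higher), with a further probe set at a bound of 1.52. Serpinb9, which blocks granzyme B, read 332 with TGFβ against 1361 with IL-6/IL-23 and lay at the floor for IL-6/TGFβ (at least 5.90-fold lower, and -0.30 in a further probe set), and Serpinb6b read 353 with TGFβ against 709 with IL-6/IL-23 and lay at the floor for IL-6/TGFβ (at least 6.28-fold lower). Serpinb6a stood at 0.11. Among granule and lysosomal proteases, Gzmb, the gene of granzyme B, read 221 with TGFβ, 87.2 with IL-6/TGFβ, then 2392 with IL-6/IL-23 (-1.34) and Nkg7, a granule membrane gene, read 229.8 with TGFβ and lay at the floor for IL-6/TGFβ (at least 4.09-fold lower). Ctsb read 1283 with TGFβ against 2599.7 with IL-6/TGFβ (1.02) and Ctsl read 199.5 with TGFβ against 415 with IL-6/TGFβ (1.06); both are lysosomal cathepsins, Ctsb was under 2-fold with median scaling, with control scaling, with loess scaling and without scaling, Ctsl was under 2-fold with median scaling, with control scaling and without scaling, and Ctsw (0.56), Ctsd (0.14) and Ctss (-0.53) stayed within it.

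Genes of naive and resting T cells were mixed, with 5 higher and 2 lower of 25 read (median 0.26, -0.18 without scaling and 0.13 with a 2-fold higher floor). Satb1, a chromatin organizer, read 1225 with TGFβ, 5894 with IL-6/TGFβ, then 6899 with IL-6/IL-23 (2.27), with 3 further probe sets at 0.37 to 2.23. Sgk1 is counted in this list, although it is a kinase that holds back Foxo1. It read 1201 with TGFβ, 3559 with IL-6/TGFβ, then 123 with IL-6/IL-23 (1.57), while Foxo1 (0.66) and Klf2 (0.13) did not reach 2-fold. Dapl1 read 607 with TGFβ against 97.3 with IL-6/TGFβ (-2.64) and Klf3 read 272 with TGFβ against 130.2 with IL-6/TGFβ (-1.06, with further probe sets at -0.36 and -0.06), while Klf13 stood at 1.05 (under 2-fold with median scaling, with control scaling and without scaling). Of 35 cell cycle genes read, Cdk6 alone was past 2-fold (759 and 1711, 1.17). Cdk6 was under 2-fold with median scaling and without scaling, and 1 of its 2 further probe sets gave 0.33. Mki67 (0.04), Pcna (0.02) and Mcm5 (0.01) were close to 0. Ratios of this list ran from -0.79 to 1.17, and 4.92% of all genes read were past 2-fold. The count of 1 is therefore no result about cell cycle genes. In the Bcl2 family Bnip3, a hypoxia-induced mitophagy gene, was the 1 higher member of 13 read (1.56), with Bcl2 at -0.61 and Bcl2l11, the gene of the death factor BIM, at 0.82. Beside the same 4.92% that count is no result about the family.

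Interferon-stimulated genes past 2-fold were all lower. Of 23 read, 5 were lower and 0 higher (median -0.55, from -0.84 to -0.52 over the scalings). Mndal, of the family of interferon-inducible DNA sensors, read 692 with TGFβ against 141 with IL-6/TGFβ (-2.30). Of the interferon-induced GTPases, Gbp6 read 856 with TGFβ, 216 with IL-6/TGFβ, then 859 with IL-6/IL-23 (-1.99) and Iigp1 read 4568 with TGFβ against 1548 with IL-6/TGFβ (-1.56). The RNA sensor Ifih1 read 200.2 with TGFβ, 60.2 with IL-6/TGFβ, then 698 with IL-6/IL-23 (-1.73), and Ifitm2, which bars viral entry, read 644 with TGFβ, 209 with IL-6/TGFβ, then 2123 with IL-6/IL-23 (-1.63). Its relative Ifitm3 read 111 with TGFβ, 173 with IL-6/TGFβ, then 3665 with IL-6/IL-23 (0.64), and whether these probe sets share signal was not tested. Gbp2 (0.38), Bst2 (0.31) and Stat2 (0.13) were not lower. Of 14 antigen presentation genes read none was past 2-fold, the lowest being the peptide transporters Tap2 (-0.93) and Tap1 (-0.75). Of all genes read 4.92% were past 2-fold, so that this count is no result about antigen presentation genes.

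Counts in the metabolic lists stand beside 4.92% of all genes read that were past 2-fold in either direction, so that a count of 0 in lists of this size is no result about their members. None of 20 glycolysis genes was past 2-fold, though 17 of them had ratios above 0, with a median of 0.22 that turned to -0.21 without scaling. Aldoa (0.62), Pkm (0.60) and Tpi1 (0.41) were among these. Of 16 hypoxia response genes, 4 were higher: Hif1a, Bnip3, Plod2 and Mxi1, a MYC antagonist that read 381 with TGFβ against 1071 with IL-6/TGFβ (1.49). Vegfa stood at 0.21 and Egln3 at 0.69. Of 20 cholesterol synthesis genes, 20 ATF4 targets, 24 respiratory chain subunits and 17 chaperones of the endoplasmic reticulum, 0 were past 2-fold, and their medians were -0.24, -0.15, 0.06 and 0.00.

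Ranked genes outside the lists covered several functions. Frmd4b, a scaffold gene, read 108 with TGFβ, 1235 with IL-6/TGFβ, then 729 with IL-6/IL-23 (3.52), and its 3 further probe sets gave 1.58 to 3.18. Stard10, a phospholipid carrier, read 76.3 with TGFβ, 707 with IL-6/TGFβ, then 60.6 with IL-6/IL-23 (3.21), Basp1, a membrane-bound signalling protein gene, read 192 with TGFβ, 1381 with IL-6/TGFβ, then 141 with IL-6/IL-23 (2.85), and Pdpn, which encodes the surface glycoprotein podoplanin, read 219 with TGFβ, 1416 with IL-6/TGFβ, then 136 with IL-6/IL-23 (2.70). Stard10, Basp1 and Pdpn read lowest with IL-6/IL-23, but within 2-fold of their levels with TGFβ, and for Stard10 both of these levels lay near the floor. By contrast Mt2, a metallothionein that binds zinc, read 195 with TGFβ, 1399.9 with IL-6/TGFβ, then 2311 with IL-6/IL-23 (2.85), and Sdcbp2 read 79.9 with TGFβ, 551 with IL-6/TGFβ, then 557 with IL-6/IL-23 (2.79), with both arrays that held IL-6 above the TGFβ array. Arid5a, which stabilizes cytokine mRNAs, read 460.4 with TGFβ, 2429 with IL-6/TGFβ, then 918 with IL-6/IL-23 (2.40). Pltp, which transfers phospholipids, stood at 2.48, Tspan6 at 2.48, Smim3 at 2.45 and Crispld2 at 2.29. Further probe sets gave a bound of 1.49 for Pltp, 1.43 for Tspan6, and bounds of 0.76 and 1.77 for Crispld2.

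Bounds on the higher side were at least 6.95-fold for Plac8, at least 5.77-fold for Lgr4, a receptor for R-spondins, at least 5.48-fold for the phosphatase gene Ppm1j, at least 5.15-fold for Olfm2, at least 5.11-fold for the glycosyltransferase gene Gcnt2, at least 4.63-fold for the small GTPase gene Gem and at least 4.55-fold for Lbp, which binds lipopolysaccharide. Acpp, Pou6f1, Alpk2 and the pseudogene Hmga2-ps1 followed, with bounds between 3.78-fold and 4.36-fold, and the probe set of Hmga2-ps1 may also read Hmga2. For Gcnt2, 3 further probe sets gave 0.23 to 1.01.

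Lower genes outside the lists included enzymes of DNA methylation and surface glycans. Dnmt3a, a de novo DNA methyltransferase, read 553 with TGFβ, 136 with IL-6/TGFβ, then 407 with IL-6/IL-23 (-2.02), its 4 further probe sets gave -1.74 to -0.49, and Dnmt3b stood at -1.15 (chosen after its value was seen). St8sia6, a sialyltransferase, read 1653 with TGFβ, 336 with IL-6/TGFβ, then 261 with IL-6/IL-23 (-2.30), and 2 further probe sets gave -2.41 and -2.32. Prkca, a protein kinase C, read 846 with TGFβ against 209 with IL-6/TGFβ (-2.02). Ncf1, a subunit of the phagocyte oxidase, read 895 with TGFβ, 182 with IL-6/TGFβ, then 163 with IL-6/IL-23 (-2.29), Ly75, an endocytic receptor, read 634 with TGFβ against 155 with IL-6/TGFβ (-2.03), and Cd72, a lectin best known on B cells, read 232 with TGFβ against 61.5 with IL-6/TGFβ (-1.92). Eno3, the muscle form of enolase, read 1363 with TGFβ against 293 with IL-6/TGFβ (-2.22), and Stra6, a retinol transporter, read 570.4 with TGFβ against 119 with IL-6/TGFβ (-2.26). The remaining ranked genes were Tesk2, Ipcef1, Glipr1, Grasp, Tacc2, Klhl2, Stk39, Litaf and Fbxo2, the lowest of them Tesk2 at -2.31, while Glipr1 stood at -2.03 with -0.65 in a further probe set, and the bounds were at least 5.08-fold for Sntb1, with further probe sets from -1.96 to -1.07, at least 4.52-fold for Tns1, at least 4.08-fold for Nppc, at least 4.01-fold for the fatty acid desaturase gene Scd1 and at least 3.59-fold for Calhm6.

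Some of these genes lie side by side. In the gene order of GRCm38.p6 limited to genes on the array, 22 neighbouring pairs were past 2-fold in the same direction, 13 higher and 9 lower, and they held 43 of the 451 genes. The share among all neighbouring pairs was not worked out, so this count does not show clustering. Higher pairs included Mt1 and Mt2 (1.58 and 2.85), Tmem176a and Tmem176b (1.13 and 1.39, both under 2-fold without scaling), Tec and Txk, Tgm2 and Lbp, and Il21 and Cetn4, for which Cetn4 stood at a ratio of 1.69. Lower pairs included Ccl3 and Ccl4, Cd274 and Pdcd1lg2, Serpinb6b and Serpinb9, and Grasp and Nr4a1. Several are gene duplicates, for which shared hybridization was not tested, and genes of the pairs beyond those ranked or listed were chosen after their values were seen.

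Few markers of other cells were read. Myeloid markers were at the floor on both arrays for 14 of 16, Itgam, Lyz2 and Cd14 among them, and the 2 that were read summed to 216 with TGFβ and 136 with IL-6/TGFβ, floor values included; Mpeg1, a macrophage gene, was the lower one (153 and at the floor). Of CD8 and NK cell markers 5 of 9 were at the floor on both, Ncr1 among them, and the 4 that were read summed to 448 and 307, floor values included, with Cd8a at 145 and 80.2 (-0.85) beside the lower Gzmb and Nkg7. Of 9 erythroid and platelet markers 8 were at the floor on both arrays. The part of such cells in the lower values of Gzmb, Nkg7 and Mndal was not tested, and in a bulk culture fewer cells of a type and less RNA per cell cannot be told apart.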

How the data were processed

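RNA of 3 cultures was measured on 3 Affymetrix mouse arrays, from 10 µg of total RNA each, per the labels' protocols. The authors deposited a linear intensity for each probe set on each array; how these were summarized, background-corrected and scaled is not given in the sources used here. With 1 array per condition, array number limits the precision, and no p-value is given.

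After 64 control probe sets were left out, log2 intensities of 45037 probe sets were quantile-normalized over the 3 arrays (limma 3.58.1, R 4.3.3). Probe sets with several genes (932) or unnamed here (9160) were not used for genes. Symbols come from GEO's platform annotation; 34741 Entrez identifiers matched RefSeq (GRCm38.p6) and 0 symbols changed. Each gene stands by the probe set brightest over the 3 arrays. Of the 137 probe sets behind the floor, 7 and 8 exceeded it with TGFβ and IL-6/TGFβ, and Cela1 and Myh7 among their genes passed 2-fold. A gene counts as higher or lower at 2-fold if its higher level exceeds the floor. A list's median holds bounds at their value and leaves out members at the floor on both arrays.

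Named are the 25 highest and lowest ratios and the 15 largest bounds per direction, leaving out genes whose probe sets differ in sign, and from each of 44 lists every member past 2-fold and up to 4 others by level. Any other gene, also within a list, was chosen after its values were seen. Members and lists were chosen with earlier results of these data known. There were 10 alternative settings.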

Additional observations from a re-analysis of the deposited data

How the results depend on the processing

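Over 10 alternative settings, the count of higher genes ranged from 123 to 349 and that of lower genes from 128 to 678, against 255 and 196. Counts moved by more than 1.5 times without scaling, to 123 higher and 678 lower genes, with the median ratio of genes read on both arrays at -0.42, and with a 2-fold higher floor, to 128 lower genes; fewer genes then pass the floor. Median scaling gave 197 and 242 genes, and scaling to the hybridization controls 212 and 235. Under all 5 other scalings 123 of 255 higher and 185 of 196 lower genes were counted; leaving the arrays unscaled lowers nearly every ratio, which by construction keeps lower genes. The list of Th17 transcription factors had the highest median as reported, but aryl hydrocarbon receptor targets had a higher one with quantile scaling over 2 arrays (1.19 against 1.02) and without scaling (0.88 against 0.63), and also with control scaling and with each other floor tried. Without a floor 349 and 263 genes were counted, and averaging probe sets per gene gave 202 and 185. No gene of the 150 followed from the ranks and lists changed sign under these settings. All 150 were past 2-fold to begin with, so the absence of sign changes is no measure of stability. Among the ratios of these genes and the list medians, 394 values moved by 0.23 log2 units or more and 1533 by less. Depth cannot be read from intensities, and 9034 genes at the floor on both arrays could not be compared. No paired analysis was possible because each condition has 1 array.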
